A study of Mus musculus with 30 samples.

Results

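Enzymes and transporters that carry glucose carbon through glycolysis, to lactate or into mitochondria, and into and out of glycogen were followed in mouse embryonic stem (ES) cells over 6 hours under 1% oxygen. The list holds 35 genes. It was drawn up by function but with earlier results of these data known, and all probes carrying a current or older symbol of a member were used. Of the 35 members, 31 had a named probe on the array and 27 passed the filter on low signals, out of 9826 genes tested in all. Gpi1, Pfkfb1, Pgam1 and Eno1 had no probe that could be named here. The probes of Pklr, Slc16a1, Pgm2 and Gbe1 were below the filter, and none of them was above background in any sample. The glucose phosphate isomerase step, the main enolase and the branching enzyme of glycogen were therefore not measured.

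The arrays were Illumina BeadChips, hybridised with 1 sample each, and covered 28 samples of the Ainv15 line, male blastocyst-derived ES cells, in 7 groups of 4. One group (ESC) stayed in serum-containing ES cell medium with LIF, the cytokine that keeps ES cells undifferentiated. The remaining 6 groups were in N2B27, a serum-free medium used for neural differentiation: alone (N2B27), with doxycycline at 2 ug/ml (Dox), with DAPT at the labelled 2.5 ng/ml (DAPT), and the same 3 conditions in a workstation at 1% oxygen (1% O2, 1% O2+Dox and 1% O2+DAPT). Both DAPT groups had first spent 4 hours with DAPT before leaving ES cell medium. For the cultures outside the workstation no oxygen level is stated, and they are called ambient here. Ainv15 cells carry a doxycycline-driven promoter at a fixed site. In this study the promoter is known to drive the active intracellular fragment of Notch1, and DAPT inhibits gamma-secretase, the protease that frees this fragment from the receptor. Doxycycline was not given to cells lacking the transgene, and its own effects and those of the transgene cannot be told apart. All samples come from 1 line.

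Glycolysis splits glucose into pyruvate in the cytoplasm. Lactate dehydrogenase reduces pyruvate to lactate, and pyruvate dehydrogenase (PDH) sends it into mitochondrial respiration unless PDH kinases switch PDH off. Most steps are served by several isoforms from separate genes. Under low oxygen, hypoxia-inducible factors are known to raise the transcription of many of these genes, and of genes that store glucose as glycogen. Pluripotent cells are known for a high rate of glycolysis even in ambient oxygen.

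All levels below are log2 of the background-corrected and quantile-normalized intensity of the probe with the highest mean for each gene. They can be compared between samples for 1 probe but not between probes. A change is a difference of such levels with the standard error (SE) of a limma model over all 28 samples, and a gene was called changed at a Benjamini-Hochberg adjusted p under 0.05 over all 9826 genes. The mean oxygen effect is the average of the 3 oxygen comparisons (1% O2 minus N2B27, 1% O2+Dox minus Dox, 1% O2+DAPT minus DAPT), which share no samples. The labels call the samples biological replicates without saying whether they came from separate cultures, and p-values here measure only how far these samples spread, some of which may be technical. In such bulk samples, more RNA of a gene per cell and more cells with that RNA cannot be told apart. Replicates 1 and 2 stood apart from replicates 3 and 4 in every group, for a reason the labels do not give. Each result was therefore also computed within these sets and with the replicate number as a block. Of the ES cell markers, all 8 with a probe were above background in all 28 samples, and none passed the test for the mean oxygen effect. The highest estimates among them were 0.80 for Tdgf1 (adjusted p = 0.0649) and 0.30 for Klf4 (adjusted p = 0.61), and the rest lay between -0.14 and 0.18. Markers of other cells moved in part. Gata6, Sox17 and Sox7, 3 of 4 primitive endoderm genes, were higher under 1% oxygen by 0.51, 0.36 and 0.44, and the summed signal of the 4 genes was 1050 to 1540 against 897 to 1220 in ambient samples. Eomes, of the 3 trophectoderm genes, was higher by 0.89 and Thy1, of 6 fibroblast genes, lower by 0.49. The summed trophectoderm signal was 461 to 949 against 392 to 631, and the summed fibroblast signal 516 to 1010 against 680 to 1200. Sox1 and Pax6 (neural), Mesp1 and Mixl1 (mesoderm), Elf5 and Lum were above background in no sample. The part of these cells in the changes below was not tested.

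Under 1% oxygen, 15 of the 27 members tested rose in 1% O2 minus N2B27 and none fell, while 4.09% of all genes tested passed in either direction and 2.82% passed as higher. In 1% O2+Dox minus Dox 15 rose and none fell (4.06% of all genes in either direction, 2.65% higher). In 1% O2+DAPT minus DAPT 14 rose and none fell (4.02% and 2.68%). With the replicate block, 1% O2+DAPT minus DAPT called 16 members, against 21% of all genes. The median change of the members in 1% O2 minus N2B27 was 0.64, beside -0.02 over all genes. In the mean oxygen effect 16 members rose and none fell, against 17.5% of all genes in either direction and 7.73% as higher. With the replicate block 19 members rose and 1, Pgam2, fell, against 41.4% of all genes in either direction. On the fitted scale 8 called members were at least 2-fold higher, against 0.967% of all genes. One of the 8, Pgk1, was near background in ambient samples and is bounded only at less than 2-fold, which leaves 7. A set of 14 members passed in each of the 3 comparisons. The 16 were Pfkfb3, Pgm1, Aldoc, Pfkp, Tpi1, Pfkl, Pgk1, Gys1, Aldoa, Ldha, Pygl, Hk2, Pdk1, Pkm, Pdk3 and Pfkfb2, in order of the fitted mean effect, which for Pgk1 is not exact. Of these, 15 were higher in all 12 differences between samples of the same number, and Pfkfb2 in 8 of 12. Among all genes called, 68.9% were higher in 1% O2 minus N2B27 and 44.1% in the mean oxygen effect. Median scaling gave 58.5% and 26.6%, and every member called under it was higher as well. All 4 samples under 1% O2 lay above all 4 N2B27 samples for 15 members, which held for 4.22% of all genes. The filter bears on these counts: Hk1, Pgk1 and Pdk2 passed it only with the samples under 1% oxygen, and the other 24 passed it on the remaining samples alone. Pgk1 is in each of the counts of members that rose, and its call is not independent of the filter. Without a filter on dim probes, 13, 14 and 14 of 31 members rose in the 3 comparisons and none fell. Of the 15967 genes then tested, 310, 283 and 299 passed in either direction. In the mean oxygen effect 17 of the 31 rose, with 1511 of all genes called.

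**Figure D1:**
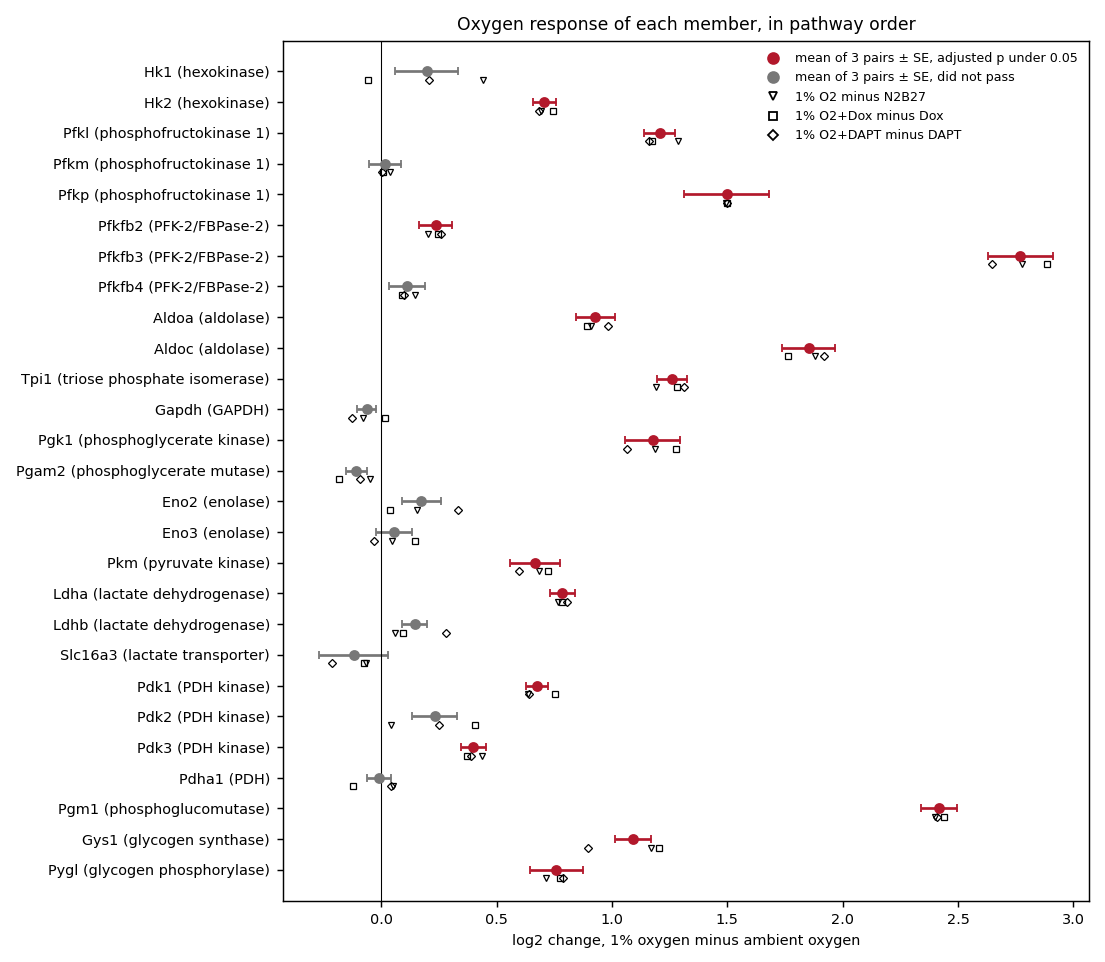
Change of each tested member under 1% oxygen, in pathway order. Filled circles with bars are the mean oxygen effect ± SE on the log2 scale, red where the adjusted p was under 0.05, and open symbols are the 3 oxygen comparisons. Pfkfb3 (2.77) and Pgm1 (2.42) lie farthest to the right, and Gapdh, Pfkm and Pdha1 lie at about 0. The Gapdh probe was at the top of the signal range, where a rise could hardly show.

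Pfkfb3, which acts on the first committed step, and Pgm1, at the entry into glycogen, rose most among the members. Pfkfb3 had the 10th and Pgm1 the 15th highest mean oxygen effect among the 9826 genes. The promoters of the members at the top of the order are shown because these genes moved together, with 250 bases before and 50 after the transcription start, as listed by RefSeq for mouse build GRCm38.p6. Capitals mark ACGTG and GCGTG on either strand, both forms of the core that hypoxia-inducible factors are known to bind. On opposite strands the matches can overlap. Where a gene had more than 1 listed start, the window with the most matches is shown. The windows of Pfkfb3 and Aldoc were thus picked for their matches and do not represent every start of these genes. The window of Pfkfb3 is chr2:11502041-11502340, minus strand, that of Pgm1 is chr4:99929201-99929500, plus strand, and that of Aldoc is chr11:78322823-78323122, plus strand. For Pfkp it is chr13:6648722-6649021, minus strand, and for Tpi1, the member with the 5th highest mean oxygen effect and the last shown, chr6:124814109-124814408, minus strand.
Pfkfb3: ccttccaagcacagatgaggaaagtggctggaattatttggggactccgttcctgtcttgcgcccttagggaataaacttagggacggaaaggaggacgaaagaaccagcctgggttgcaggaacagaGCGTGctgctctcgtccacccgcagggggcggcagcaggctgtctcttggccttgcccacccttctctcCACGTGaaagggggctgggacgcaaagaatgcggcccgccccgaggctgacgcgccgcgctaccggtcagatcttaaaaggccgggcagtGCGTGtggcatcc
Pgm1: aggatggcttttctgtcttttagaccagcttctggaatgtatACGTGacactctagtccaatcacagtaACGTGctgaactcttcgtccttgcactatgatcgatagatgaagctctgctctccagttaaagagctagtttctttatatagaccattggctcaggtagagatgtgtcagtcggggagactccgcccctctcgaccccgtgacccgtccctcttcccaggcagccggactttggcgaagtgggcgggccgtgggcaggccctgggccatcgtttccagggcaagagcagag
Aldoc: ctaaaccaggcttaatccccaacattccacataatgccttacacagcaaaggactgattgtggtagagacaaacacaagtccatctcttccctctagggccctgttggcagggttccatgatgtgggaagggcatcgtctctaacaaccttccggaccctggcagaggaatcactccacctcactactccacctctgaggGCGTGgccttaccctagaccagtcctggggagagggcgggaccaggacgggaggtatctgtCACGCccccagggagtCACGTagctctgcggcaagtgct
Pfkp: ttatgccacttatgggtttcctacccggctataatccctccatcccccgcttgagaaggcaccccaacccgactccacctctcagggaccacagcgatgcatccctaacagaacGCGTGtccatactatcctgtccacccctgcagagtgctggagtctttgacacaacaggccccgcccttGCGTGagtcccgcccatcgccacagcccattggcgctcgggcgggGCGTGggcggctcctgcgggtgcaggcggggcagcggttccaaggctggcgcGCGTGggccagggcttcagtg
Tpi1: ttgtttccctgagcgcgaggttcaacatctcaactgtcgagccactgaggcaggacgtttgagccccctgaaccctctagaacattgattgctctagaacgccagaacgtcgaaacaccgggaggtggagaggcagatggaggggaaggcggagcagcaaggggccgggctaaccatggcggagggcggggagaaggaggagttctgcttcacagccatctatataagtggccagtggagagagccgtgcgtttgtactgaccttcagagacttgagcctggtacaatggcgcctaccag
Pfkfb3 held 4 matches at 3 places, since one place matches on both strands, Pgm1 held 2, Aldoc 3 and Pfkp 4, while the Tpi1 window held 0. The second listed starts of Pfkfb3 and of Aldoc held 1 match each. Of the 16 members that rose, 14 (87.5%) had a match in at least one listed promoter. The share was 9 of 11 (81.8%) for tested members that did not pass, 66.2% of the 7964 tested genes found in the table, and 46.7% of all 27025 genes in the table. Counted over promoters, ACGTG was present in 14 of 25 (56.0%) for members that rose, in 6 of 16 (37.5%) for tested members that did not pass, in 24.7% for the genes tested and in 19.6% of all 32851 promoters. GCGTG was present in 12 of 25 (48.0%) for members that rose, in 8 of 16 for tested members that did not pass, in 49.0% for the genes tested and in 32.4% of all promoters. A match is a description of these letters and no measured binding site.

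**Figure D2:**
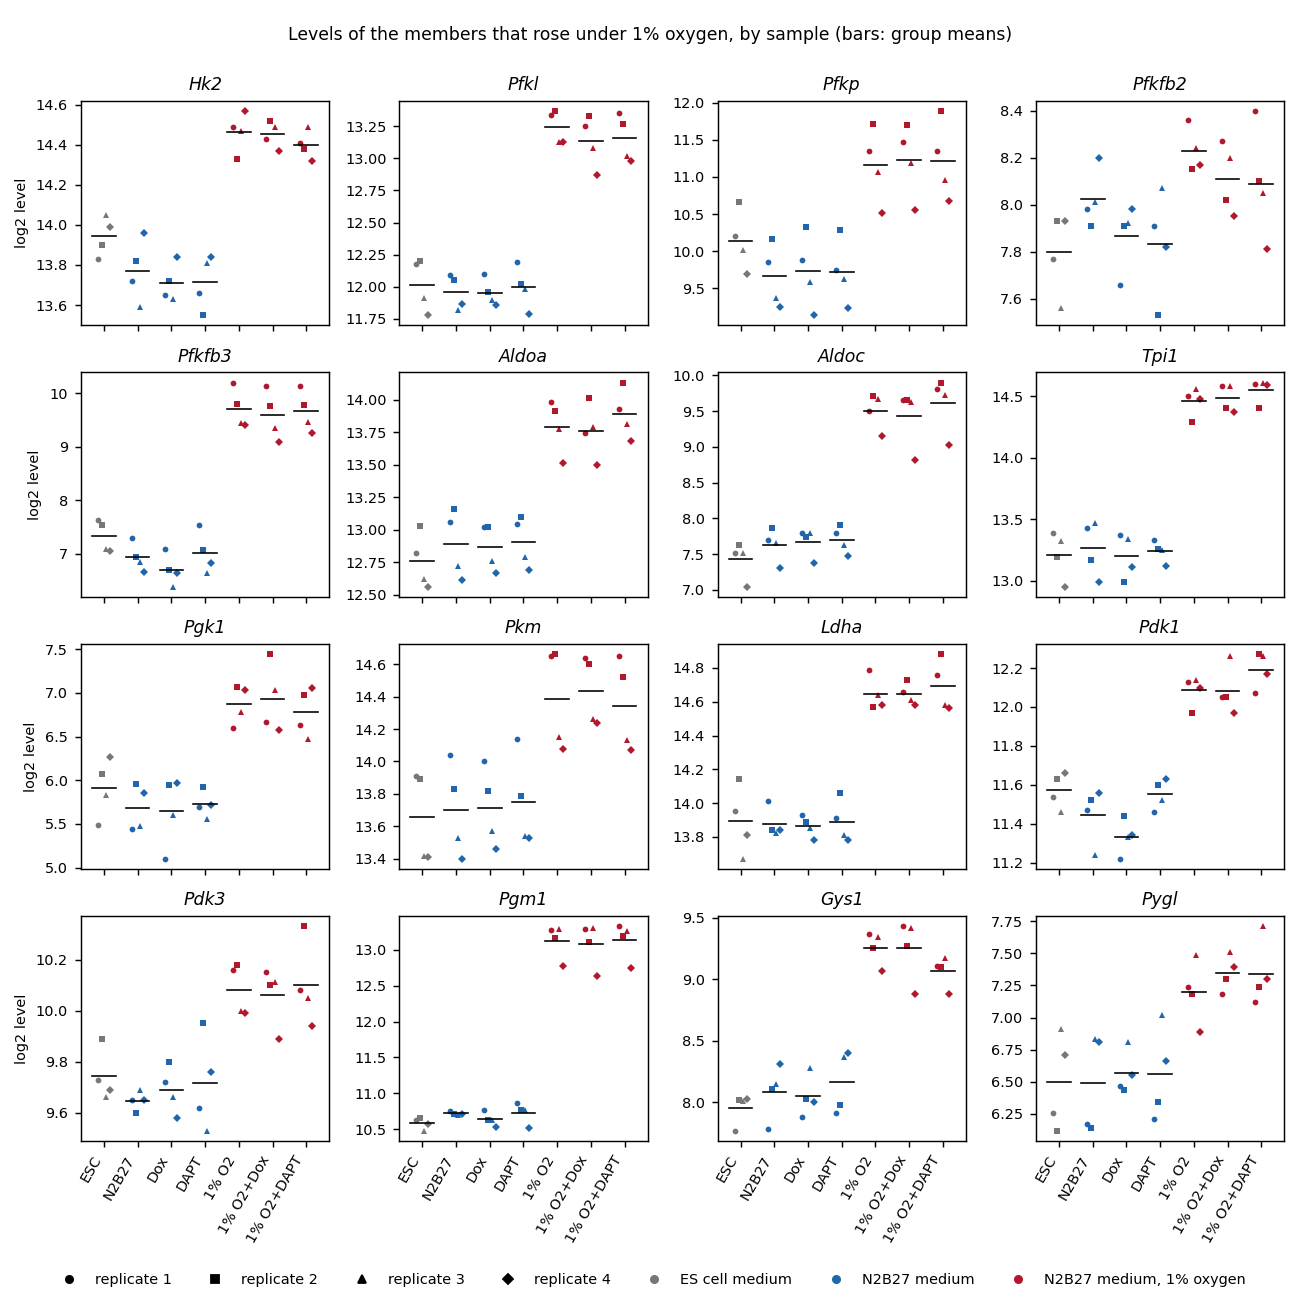
Log2 level of the 16 members that rose, in each of the 28 samples. Colours mark medium and oxygen, symbols the replicate number, and bars the group means. For Pfkfb3 the 12 samples under 1% oxygen lie between 9.09 and 10.20 and the 12 ambient N2B27-medium samples between 6.38 and 7.53, while the Pfkfb2 values of these groups overlap.

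Hexokinase traps glucose in the cell as glucose 6-phosphate, and of its isoforms Hk2 rose. Hk2 read 13.72, 13.82, 13.59 and 13.96 in N2B27 replicates 1 to 4 and 14.49, 14.33, 14.47 and 14.57 under 1% O2. The groups did not overlap, and the lowest sample under 1% O2, replicate 2, was still above the highest in N2B27, replicate 4. The change was 0.69 ± 0.08 (SE, adjusted p = 3.92e-06), with 0.74 in Dox and 0.68 in DAPT. Hk1, the isoform of most adult tissues, read 5.73, 5.57, 6.27 and 6.09 in N2B27 and 6.43, 6.51, 7.00 and 5.49 under 1% O2. Its probe was above background in only 10 of the 28 samples, and the groups overlapped through replicate 4 under 1% O2. The Hk1 change of 0.44 ± 0.24 (SE, adjusted p = 0.439) did not pass. It was 0.73 (adjusted p = 0.0371) without 1% O2 replicate 4 but 0.23 (adjusted p = 0.913) without 1% O2 replicate 3. Within replicates 1 and 2 it was 0.82, and within replicates 3 and 4 it was 0.06. Its mean oxygen effect was 0.20 ± 0.14 (SE, adjusted p = 0.407).

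Phosphofructokinase 1 commits fructose 6-phosphate to glycolysis and is assembled from liver (Pfkl), muscle (Pfkm) and platelet (Pfkp) subunits. Pfkl and Pfkp rose and Pfkm did not pass. Pfkl read 12.09, 12.05, 11.82 and 11.87 in N2B27 and 13.34, 13.37, 13.13 and 13.13 under 1% O2. Pfkp read 9.85, 10.17, 9.37 and 9.25 in N2B27 and 11.35, 11.71, 11.06 and 10.51 under 1% O2. In both genes every 1% O2 sample was above every N2B27 sample, and replicates 3 and 4 were below replicates 1 and 2 on each side. The Pfkl change was 1.29 ± 0.12 (SE, adjusted p = 4.64e-08) and the mean effect 1.21 ± 0.07. For Pfkp the change was 1.49 ± 0.32 (SE, adjusted p = 0.00497) and the mean effect 1.50 ± 0.18, and a second Pfkp probe gave a mean effect of 1.57. Pfkm read 10.87, 10.78, 11.13 and 10.92 in N2B27 and 10.66, 10.93, 11.16 and 11.11 under 1% O2. The Pfkm ranges overlapped, replicate 1 being lower and the other three higher under 1% O2. Its change was 0.04 ± 0.12 (SE, adjusted p = 0.999), its mean effect 0.02 ± 0.07 (SE, adjusted p = 0.939), and a second, dimmer Pfkm probe gave 0.15.

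The bifunctional enzymes PFK-2/FBPase-2 make and degrade fructose 2,6-bisphosphate, the strongest known activator of phosphofructokinase 1. Pfkfb3, whose product is known for a high kinase over phosphatase activity, had the highest change of any member. It read 7.30, 6.94, 6.84 and 6.66 in N2B27 and 10.20, 9.80, 9.44 and 9.41 under 1% O2. The groups lay far apart, and replicate 1 was the highest in both. The change was 2.78 ± 0.24 (SE, adjusted p = 2.02e-08), that is 6.86-fold, and 2.89 ± 0.24 and 2.65 ± 0.24 in Dox and DAPT. Pfkfb2, the heart form, read 7.98, 7.91, 8.01 and 8.20 in N2B27 and 8.36, 8.15, 8.24 and 8.17 under 1% O2. Its groups overlapped, N2B27 replicate 4 lying above 2 of the 1% O2 samples. Pfkfb2 passed only as a mean over the 3 pairs, at 0.24 ± 0.07 (SE, adjusted p = 0.0211). Median scaling in place of quantile normalization gave 0.20 (adjusted p = 0.0715), and its mean effect was 0.40 in replicates 1 and 2 but 0.07 (adjusted p = 0.684) in replicates 3 and 4. Pfkfb4 read 8.59, 8.54, 8.36 and 8.43 in N2B27 and 8.90, 8.68, 8.48 and 8.44 under 1% O2, each sample slightly above its N2B27 counterpart but within overlapping ranges. Its mean effect of 0.11 ± 0.08 (SE, adjusted p = 0.415) did not pass, and passed with the replicate block (adjusted p = 0.0153).

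Aldolase splits fructose 1,6-bisphosphate into 2 triose phosphates, and both measured isoforms rose. Aldoc, the brain form, read 7.69, 7.87, 7.65 and 7.31 in N2B27 and 9.50, 9.71, 9.67 and 9.15 under 1% O2. Aldoa, the muscle and general form, read 13.06, 13.16, 12.72 and 12.61 in N2B27 and 13.98, 13.91, 13.77 and 13.51 under 1% O2. Neither gene's groups overlapped, and replicate 4 was the lowest sample of each group. The change of Aldoc was 1.88 ± 0.20 (SE, adjusted p = 5.32e-07) and that of Aldoa 0.91 ± 0.15 (SE, adjusted p = 0.000249). Triose phosphate isomerase, which interconverts the aldolase products, has the single gene Tpi1. It read 13.43, 13.17, 13.47 and 12.99 in N2B27 and 14.50, 14.29, 14.56 and 14.48 under 1% O2, with no overlap. The Tpi1 change was 1.19 ± 0.11 (SE, adjusted p = 6.94e-08), and a second, dimmer probe gave a mean effect of 0.86 beside 1.26.

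Gapdh, which makes 1,3-bisphosphoglycerate and NADH, did not pass in any oxygen comparison. It read 15.86, 15.80, 15.76 and 15.65 in N2B27 and 15.73, 15.68, 15.58 and 15.76 under 1% O2, with overlapping groups. The mean oxygen effect was -0.06 ± 0.04 (SE, adjusted p = 0.38). Its probe was among the 12 brightest of 24611 on every array, at 79.8% to 100% of the brightest signal there. Quantile normalization leaves a probe at the top of the ranks little room to rise, so this result cannot show whether Gapdh responded. The remaining Gapdh measurement, listed under a pair of probe numbers with identical values, gave a mean effect of 0.10 (adjusted p over all probes = 0.0305, where 15.1% of probes passed), opposite in sign to the first. Pgk1, the kinase of the first ATP-yielding step, was at or below background in all N2B27, Dox and DAPT samples and above it in all 12 samples under 1% oxygen. It read 5.44, 5.96, 5.48 and 5.85 in N2B27 and 6.60, 7.07, 6.78 and 7.03 under 1% O2. Pgk1 was at least 1.58-fold higher under 1% O2 than in N2B27 (adjusted p = 0.00066, measured change 1.19 ± 0.21), at least 1.63-fold higher in Dox (adjusted p = 0.000258) and at least 1.48-fold higher in DAPT (adjusted p = 0.00234). These bounds set the mean of the bright group against the background limit of each array in the dim group, or the probe's own value where that was higher. As the Pgk1 probe passed the filter only with the samples under 1% oxygen, these p-values are not independent of the filter. In the authors' processed values, where signals under 50 are set to 50, the change in 1% O2 minus N2B27 was 0.63 (adjusted p = 0.0642) and in DAPT 0.53 (adjusted p = 0.142).

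Of the lower steps of glycolysis, pyruvate kinase rose and the measured mutase and enolases did not pass, while the main isoforms Pgam1 and Eno1 were not measured. Pgam2, the muscle phosphoglycerate mutase, ranged from 7.80 to 8.09 in the 12 ambient N2B27-medium samples and from 7.70 to 8.05 under 1% oxygen. Its mean effect was -0.11 ± 0.05 (SE, adjusted p = 0.128), which passed as lower with the replicate block (adjusted p = 0.0303). The neuronal enolase Eno2 ranged from 6.50 to 7.09 and from 6.48 to 7.18, with a mean effect of 0.17 ± 0.08 (SE, adjusted p = 0.18). The muscle enolase Eno3 had one of 0.05 ± 0.08 (SE, adjusted p = 0.784). Pyruvate kinase, which forms pyruvate and ATP, was measured through Pkm, whose single probe cannot be assigned here to either splice form. Pkm read 14.04, 13.83, 13.53 and 13.40 in N2B27 and 14.65, 14.66, 14.15 and 14.08 under 1% O2. The groups did not overlap, though replicates 3 and 4 under 1% O2 were only just above N2B27 replicate 1. The Pkm change was 0.68 ± 0.19 (SE, adjusted p = 0.0373) and the mean effect 0.67 ± 0.11 (SE, adjusted p = 7.75e-05). In 1% O2+DAPT minus DAPT the change of 0.60 ± 0.19 (SE, adjusted p = 0.0807) did not pass, and passed with the replicate block (adjusted p = 2.36e-08).

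At the pyruvate branch Ldha, the subunit known to favour lactate production, rose. It read 14.01, 13.84, 13.82 and 13.84 in N2B27 and 14.79, 14.57, 14.64 and 14.58 under 1% O2, without overlap and with replicate 1 the highest in both. The change was 0.77 ± 0.09 (SE, adjusted p = 3.98e-06), with 0.78 in Dox and 0.80 in DAPT. Ldhb, the heart subunit, read 11.66, 11.67, 11.67 and 11.89 in N2B27 and 11.85, 11.81, 11.73 and 11.72 under 1% O2, with N2B27 replicate 4 the highest of the 8 samples. Its mean effect was 0.14 ± 0.06 (SE, adjusted p = 0.0726). The Ldhb call depended on the fit: the adjusted p was 0.0116 with the replicate block, 0.0425 without N2B27 replicate 4, 0.042 without DAPT replicate 4, 0.0153 without 1% O2+DAPT replicate 1 and 0.0365 with the authors' processed values. The only Ldhb change within a single comparison that passed with the block was that in DAPT, 0.28 ± 0.10 (adjusted p = 0.0118 with the block, 0.111 without). Slc16a3, the lactate exporter MCT4, ranged from 6.31 to 7.31 in ambient N2B27-medium samples and from 6.23 to 7.10 under 1% oxygen. Its mean effect was -0.12 ± 0.15 (SE, adjusted p = 0.733), and its second probe gave -0.05.

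PDH kinases phosphorylate and inactivate PDH, and Pdk1 and Pdk3 rose. Pdk1 read 11.47, 11.52, 11.24 and 11.56 in N2B27 and 12.13, 11.97, 12.14 and 12.10 under 1% O2. Pdk3 read 9.65, 9.60, 9.69 and 9.65 in N2B27 and 10.16, 10.18, 10.00 and 9.99 under 1% O2. In neither gene did these groups overlap, and the N2B27 samples of Pdk3 lay close together. The Pdk1 change was 0.64 ± 0.08 (SE, adjusted p = 8.14e-06) and that of Pdk3 0.44 ± 0.09 (SE, adjusted p = 0.00501). In 1% O2+DAPT minus DAPT the Pdk3 change of 0.39 ± 0.09 (SE, adjusted p = 0.0134) passed although its groups overlapped, and median scaling gave 0.24 (adjusted p = 0.0995). Pdk2 read 5.93, 5.81, 6.10 and 5.68 in N2B27 and 6.05, 5.68, 5.96 and 5.99 under 1% O2, all 8 samples at or below background. Above background it was in 5 of 28 samples, and its mean effect of 0.23 ± 0.10 (SE, adjusted p = 0.113) passed with the block (adjusted p = 0.0461), without 1% O2+Dox replicate 3 (0.049) and without 1% O2+DAPT replicate 1 (0.035). Pdha1, the catalytic PDH subunit that these kinases phosphorylate, ranged from 11.87 to 12.26 in ambient N2B27-medium samples and from 11.91 to 12.41 under 1% oxygen, with a mean effect of -0.01 ± 0.05 (SE, adjusted p = 0.959).

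Of the members that lead into glycogen, Pgm1 and Gys1 rose with the upper steps, while Pgm2 and Gbe1 were below the filter. Phosphoglucomutase interconverts glucose 6-phosphate and glucose 1-phosphate, and the gene now named Pgm1, which older mouse tables call Pgm2, was matched by its Entrez number. Pgm1 read 10.76, 10.71, 10.70 and 10.71 in N2B27 and 13.28, 13.16, 13.29 and 12.77 under 1% O2. The N2B27 samples lay close together, and replicate 4 was the lowest under 1% O2. The change was 2.40 ± 0.14 (SE, adjusted p = 2.16e-11), that is 5.28-fold, with 2.44 ± 0.14 in Dox and 2.41 ± 0.14 in DAPT. Gys1, the glycogen synthase of most tissues other than liver, read 7.78, 8.11, 8.15 and 8.31 in N2B27 and 9.37, 9.25, 9.34 and 9.07 under 1% O2, without overlap. Its change was 1.17 ± 0.14 (SE, adjusted p = 2.12e-06), and its 2 other probes gave mean effects of 0.96 and 0.28, the second not past the threshold (adjusted p over all probes = 0.0711). Pygl, the liver form of glycogen phosphorylase, which releases glucose 1-phosphate from glycogen, read 6.17, 6.14, 6.83 and 6.81 in N2B27 and 7.24, 7.18, 7.49 and 6.89 under 1% O2. N2B27 replicates 1 and 2 were at or below background, and the groups did not overlap. The Pygl change was 0.71 ± 0.20 (SE, adjusted p = 0.0398) and the mean effect 0.76 ± 0.12 (SE, adjusted p = 3e-05). In 1% O2 minus N2B27 the Pygl change was 1.05 in replicates 1 and 2 but 0.37 (adjusted p = 0.494) in replicates 3 and 4, and the mean effect was 0.91 and 0.60.

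The 3 calls nearest the threshold depended on single samples in the single comparisons. The Pkm call in 1% O2 minus N2B27 ended without N2B27 replicate 2, 3 or 4 (adjusted p = 0.0585, 0.107 and 0.141) and without 1% O2 replicate 1 or 2 (0.144 and 0.135). The Pygl call there ended without N2B27 replicate 1 or 2 (0.146 and 0.163) and without 1% O2 replicate 1, 2 or 3 (0.0989, 0.0814 and 0.168). In 1% O2+Dox minus Dox the Pkm call ended without Dox replicate 3 or 4 (0.0814 and 0.094) and without 1% O2+Dox replicate 1 or 2 (0.0987 and 0.0871). The Pygl call ended there without Dox replicate 1, 2 or 4 (0.0691, 0.0807 and 0.0551) and without 1% O2+Dox replicate 3 (0.0873). Pdk3 ended there without Dox replicate 3 or 4 (0.0537 and 0.0748) and without 1% O2+Dox replicate 1, 2 or 3 (0.0752, 0.0563 and 0.0672). In 1% O2+DAPT minus DAPT Pygl ended without DAPT replicate 1 or 2 (0.0881 and 0.0819) and without 1% O2+DAPT replicate 3 (0.101). Pdk3 ended there without DAPT replicate 1 or 3 (0.0525 and 0.0653) and without 1% O2+DAPT replicate 2 (0.077). The mean oxygen effects of Pkm, Pygl and Pdk3 passed in all 24 fits that left out 1 sample, with adjusted p of at most 0.000214, 9.11e-05 and 1.99e-05.

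Whether isoforms of one step responded unequally was tested on the difference between 2 genes within each array, compared between oxygen levels in the 24 N2B27-medium samples. The exact two-sided permutation test exchanged oxygen labels within each treatment without pairing samples by number, and p-values were adjusted over 13 pairs. Its smallest possible p is 5.83e-06, and the pairs given below at 1.52e-05 lie at that floor. An exact test on differences of samples paired by number gave these pairs an adjusted p of 0.000907. It gave 0.000907 for Ldha and Ldhb and 0.00159 for Pdk1 and Pdk3. Hk1 and Pdk2 were above background in 10 and 5 of the 28 samples and passed the filter only with the samples under 1% oxygen, so the 3 pairs they enter are given as values and not read as isoform differences. Of 13 pairs 9 passed, and of the 10 without these genes 7 passed. Pfkl and Pfkp each rose more than Pfkm, by 1.19 ± 0.11 (SE, adjusted p = 1.52e-05) and, written as Pfkm minus Pfkp, -1.48 ± 0.25 (SE, adjusted p = 1.52e-05). Pfkl minus Pfkp was -0.29 ± 0.15 (SE, adjusted p = 0.0796), which did not pass, and passed with samples paired by number (adjusted p = 0.00212). Pfkfb3 rose more than Pfkfb4 by 2.66 ± 0.08 (SE, adjusted p = 1.52e-05), and Pfkfb2 minus Pfkfb3 was -2.53 ± 0.15 (SE, adjusted p = 1.52e-05). Aldoc rose more than Aldoa, with Aldoa minus Aldoc at -0.93 ± 0.08 (SE, adjusted p = 1.52e-05). Ldha rose more than Ldhb by 0.64 ± 0.08 (SE, adjusted p = 2.53e-05). Pdk1 rose more than Pdk3 by 0.28 ± 0.06 (SE, adjusted p = 0.000313). Each gene entered these pairs through 1 probe, and probes of a single gene also differed. Mean oxygen effects were 1.09, 0.96 and 0.28 for the Gys1 probes and 1.26 and 0.86 for those of Tpi1. The test compares probes, and whether the smaller gaps, as for Ldha and Ldhb or Pdk1 and Pdk3, come from the isoforms was not tested. Differences that did not pass were those of Pfkfb2 and Pfkfb4 at 0.12 ± 0.09 (SE, adjusted p = 0.19), which passed with samples paired by number (0.0312), and Eno2 and Eno3 at 0.12 ± 0.11 (SE, adjusted p = 0.324). The pairs with a gene near background were Hk1 minus Hk2 at -0.51 ± 0.16 (SE, adjusted p = 0.00532), Pdk1 minus Pdk2 at 0.44 ± 0.11 (SE, adjusted p = 0.000313) and Pdk2 minus Pdk3 at -0.17 ± 0.10 (SE, adjusted p = 0.152).

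**Figure D3:**
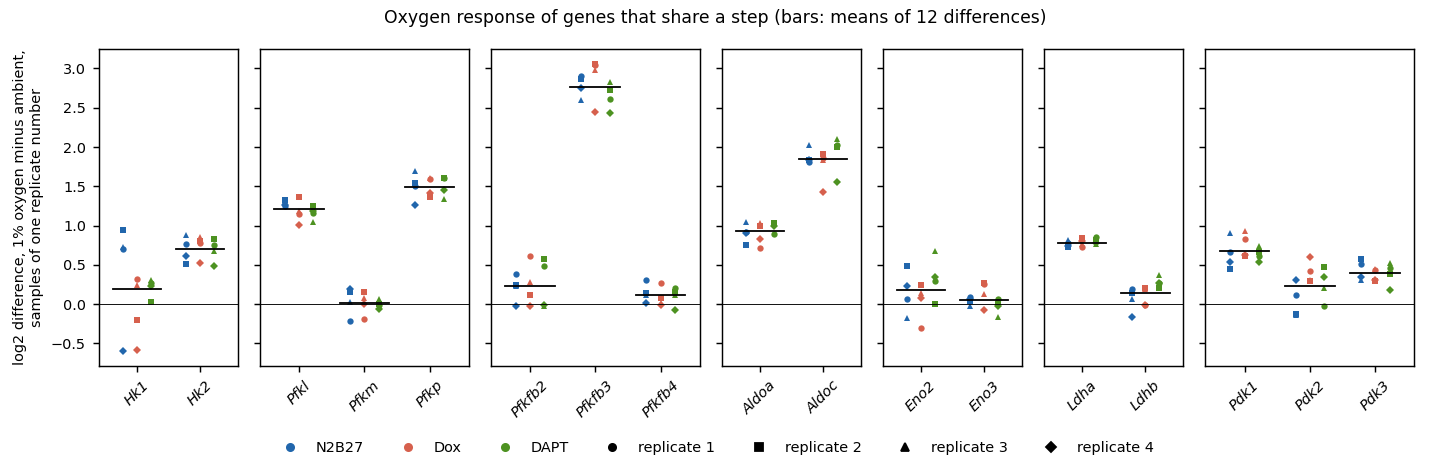
Log2 difference between the sample under 1% oxygen and the ambient sample of the same replicate number, for genes that share a step. Colours mark the treatment, symbols the replicate number, and bars the mean of the 12 differences. Pfkfb3, Pfkl, Pfkp, Aldoc and Ldha lie above 0 in all 12 differences, whereas Pfkm, Pfkfb4, Eno2, Eno3 and Ldhb spread on both sides of 0.

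Of 78 other genes of glucose and glycogen metabolism on a second list, 43 passed the filter. In the mean oxygen effect 4 of these 43 rose and 6 fell, with a median change of 0.01 (17.5% of all genes passed). The balance was not stable, since the authors' processed values gave 5 higher and 1 lower, and replicates 3 and 4 alone also 5 and 1. With the replicate block 9 rose and 11 fell (41.4% of all genes passed). The highest rise was in Ppp1r3c, a subunit that targets protein phosphatase 1 to glycogen and thereby activates glycogen synthase. Ppp1r3c read 6.54, 6.65, 6.59 and 6.97 in N2B27 and 8.55, 8.71, 8.97 and 8.93 under 1% O2. The groups did not overlap, and the mean effect was 2.06 ± 0.07 (SE, adjusted p = 1.78e-16). The related targeting subunit Ppp1r3f had a mean effect of 0.55 ± 0.08 (SE, adjusted p = 1e-05). Ppp1r3b, also counted as higher, was above background in 0 of 4 samples in each of ESC, N2B27, Dox and DAPT. Under 1% O2, 1% O2+Dox and 1% O2+DAPT it was above background in 2, 3 and 1 of 4. Ppp1r3b passed the filter only through the samples under 1% oxygen, so its call is not read as support. The size of its difference is not given, and only in Dox did its bound exceed 1, at least 1.06-fold. Bsg, the chaperone that brings lactate transporters to the cell surface, rose by 0.54 ± 0.12 (SE, adjusted p = 0.0017). Among the genes that fell, Tigar, a fructose 2,6-bisphosphatase, changed by -0.40 ± 0.08 (SE, adjusted p = 0.000709) and Ldhal6b, a lactate dehydrogenase-like gene, by -0.33 ± 0.10 (SE, adjusted p = 0.018). The hexose 6-phosphate dehydrogenase H6pd changed by -0.25 ± 0.08 (SE, adjusted p = 0.024), the transketolase Tkt by -0.16 ± 0.05 (SE, adjusted p = 0.0458) and the ribose 5-phosphate isomerase Rpia by -0.14 ± 0.04 (SE, adjusted p = 0.0238). Pgls and Taldo1, which also act in the pentose phosphate pathway, had mean effects of 0.02 ± 0.04 (SE, adjusted p = 0.882) and 0.01 ± 0.06 (SE, adjusted p = 0.946). Of the glycogen genes on this list, Ugp2, Gyg and Pygb did not pass in the mean oxygen effect. In N2B27 and under 1% O2 the group means were 7.53 and 7.73 for Ugp2, 6.76 and 6.65 for Gyg, and 7.76 and 7.74 for Pygb. Tktl1, a transketolase-like gene, passed as lower (adjusted p = 0.0228), but it was above background in 2, 2 and 1 of 4 samples in N2B27, Dox and DAPT and in 0, 0 and 1 of 4 under 1% oxygen, so the size of its difference is not given. Rpia did not pass with the authors' processed values (adjusted p = 0.2), without a filter on dim probes (0.0584) or in replicates 3 and 4 alone (0.409). The H6pd call ended without Dox replicate 2 (adjusted p = 0.0503) or 1% O2+Dox replicate 1 (0.0506), and the Tkt call in 15 of 24 fits that left out 1 sample, up to 0.0901 without 1% O2+Dox replicate 3. In replicates 3 and 4 alone Ldhal6b gave -0.14 and did not pass (adjusted p = 0.368), nor did Tktl1 (0.522).

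Neither doxycycline nor DAPT moved a member past the threshold at either oxygen level. Members called numbered 0 in Dox minus N2B27 (0.336% of all genes), in DAPT minus N2B27 (0%), in 1% O2+Dox minus 1% O2 (0.193%) and in 1% O2+DAPT minus 1% O2 (0%) by limma. At an unadjusted p under 0.05 there were 0, 0, 0 and 1. With the replicate block all 4 counts were 0 as well. These comparisons share the N2B27 or the 1% O2 samples. The interactions, which test whether doxycycline or DAPT altered the oxygen response, gave 0 members each (0.0102% and 0% of all genes), and 0 at an unadjusted p under 0.05. For the members with the highest oxygen response the estimates were small beside their errors in the fit without the block. Pfkfb3 had an interaction of 0.11 ± 0.34 (SE) with doxycycline and -0.13 ± 0.34 with DAPT, and Pgm1 one of 0.04 ± 0.20 and 0.01 ± 0.20. With the replicate block the Pfkfb3 error was ± 0.12, about the size of both estimates, and neither passed. For Pfkp the interactions were 0.00 ± 0.45 and 0.01 ± 0.45, and with the replicate block their error was ± 0.10. Further from 0 were Hk1 and Pdk2 with doxycycline at -0.50 ± 0.33 and 0.37 ± 0.24, both near background, Gys1 with DAPT at -0.27 ± 0.19 and Ldhb with DAPT at 0.22 ± 0.13.

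The change of medium from ES cell medium to N2B27 moved 1 member of 27, against 1.93% of all genes. Pgam2 read 7.45, 7.60, 7.70 and 7.32 in ESC and 8.01, 7.92, 8.01 and 7.90 in N2B27, without overlap, and changed by 0.44 ± 0.08 (SE, adjusted p = 0.00377). With the replicate block 3 members passed (16% of all genes), the other two being Pfkp at -0.48 (adjusted p = 4.78e-05) and Pfkfb3 at -0.39 (0.00202), both lower in N2B27. Pfkp read 10.20, 10.66, 10.02 and 9.69 in ESC and Pfkfb3 7.63, 7.54, 7.08 and 7.06. Each replicate of Pfkp and Pfkfb3 was thus lower in N2B27 than in ESC under the same number. The N2B27 samples also serve as the reference of 1% O2 minus N2B27.

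Levels of several members differed between the sets of replicates, and the oxygen effects were also computed within each set. Averaged over all groups, Pfkp was lower in replicates 3 and 4 than in 1 and 2 by 0.69, Pfkfb3 by 0.54 and Pkm by 0.45, whereas Slc16a3 was higher by 0.63 and Pygl by 0.37. The mean oxygen effects of all 16 members that rose were positive in both sets. Pgk1, one of them, passed the filter only with the samples under 1% oxygen. The 16 were picked on all 4 replicates, so their sign and calls within a set are no independent support. In replicates 1 and 2 alone 16 of them passed, with 1840 of all genes, and in replicates 3 and 4 alone 15 passed, Pfkfb2 being the exception, with 987 of all genes. Pfkfb3 rose by 2.87 in the first set and 2.67 in the second, Pgm1 by 2.48 and 2.36, and Gys1 by 1.31 and 0.88.

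**Figure D4:**
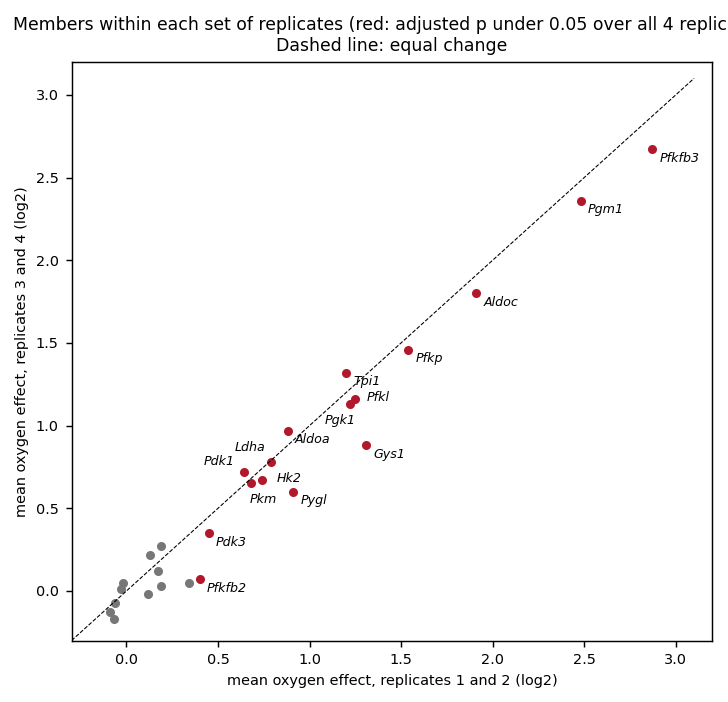
Mean oxygen effect of each tested member in replicates 3 and 4 against that in replicates 1 and 2, both on the log2 scale. Red points are the 16 members that passed over all 4 replicates, and the dashed line marks equal change. Of the red points, Pfkfb2 lies at 0.40 and 0.07 and Gys1 at 1.31 and 0.88, both below the line.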

How the data were processed

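The main table deposited by the authors holds 1 intensity per probe for 30 Illumina BeadChip arrays, on a linear scale and, per the file headers, without normalization. BeadStudio is named, with no version, per the submitters' processing notes. Between 27.2% and 29.9% of the deposited intensities per array were below 0, so background had been subtracted. The authors also deposited processed intensities. For the first array, 99.96% of these matched the main signal or a floor of 50 (tolerance 0.01), and 53.8% to 56.0% of each array lay at the floor. The median was 50 on every array, the scale is linear and uncentred, and how arrays were brought together is not stated in the sources used here. This table served as an alternative.

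Here signals were corrected with normexp at an offset of 0, taken to log2 and quantile-normalized (limma 3.58.1, R 4.3.3). Dox samples 3 and 4 each had a second array, which was averaged with the first. Gene names come from GEO's platform annotation, brought up to date by Entrez number. Of 24611 probes, 20983 had 1 symbol, 1 carried several and 3627 were unnamed. The filter kept named probes that exceeded the median of their array in at least 4 of 28 samples (12279 probes), and the probe with the highest mean stood for each of 9826 genes. All 28 samples entered 1 limma fit with a mean per group (21 residual degrees of freedom), tests are two-sided, and adjusted p-values are Benjamini-Hochberg over all genes from this fit unless another is named. The scripts were tested on simulated data.

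Precision is limited by the number of arrays, since arrays have no depth. Mean signal was 645 to 862. With no detection values in the tables, the background limit of each array was chosen after seeing the data as the 98th percentile of the sizes of its signals below 0 (29.3 to 41.6 units), and 47.7% to 49.9% of probes lay above it.

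Replicate numbers come from the sample titles. Same-numbered samples deviated together from their group means in all 32 pairs checked (r = 0.715 to 0.828). Samples of different numbers were not compared, and the shift between the sets of replicates also makes samples of a set deviate together. The check therefore cannot show that single numbers pair samples. The numbers were taken to pair samples all the same, and the fit with the replicate number as a block is given where it changes a call. Alternatives were that block, median scaling, an offset of 50, no filter or a filter at the 75th percentile, the authors' processed values, first arrays only, each probe on its own, only the groups compared, each set of 2 replicates, and leaving out each sample. The members and lists were chosen with earlier results of these data known. All members are accounted for, values per sample are given for those that passed in 1% O2 minus N2B27 or in the mean oxygen effect and for measured isoforms of their step, and other pathway genes are named where they passed in the mean oxygen effect. Pgls, Taldo1, Ugp2, Gyg and Pygb are named beside them as genes that did not pass.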

Additional observations from a re-analysis of the deposited data

Results flagged for a closer look

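Single samples lay far from the other three of their group, by Dixon's criterion, in 13 of the 259 groups examined for the 27 members and 10 other pathway genes. Chance marks about 1 in 20 groups in this way. All values are log2 levels. In Dox replicate 4, Aldoc read 7.38 (the others 7.74 to 7.79) and Ldhb 11.95 (11.80 to 11.82). In 1% O2+Dox replicate 4, Aldoc read 8.81 (9.63 to 9.65) and Ppp1r3b 5.92 (6.40 to 6.47). Replicate 3 read high for Ppp1r3c in 1% O2+Dox, at 8.93 (8.72 to 8.75), and in 1% O2+DAPT, at 9.02 (8.76 to 8.80). Among the N2B27 samples, Ldha was 14.01 in replicate 1 (13.82 to 13.84), Ldhb 11.89 in replicate 4 (11.66 to 11.67) and H6pd 9.63 in replicate 3 (9.25 to 9.31). In ESC, Hk1 was 5.46 in replicate 2 (5.81 to 5.87) and Gys1 7.77 in replicate 1 (8.01 to 8.03). Tpi1 was 14.40 in 1% O2+DAPT replicate 2 (14.59 to 14.61), and Pdk2 was 5.38 in Dox replicate 3 (5.76 to 5.80), below background as in the rest of its group.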

How the results depend on the processing

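No called change reversed under any alternative. Of 2255 values recomputed for single genes, 2153 kept their side of the threshold, 91 lost it and 11 gained it. Leaving out 1 sample at a time gave 13 to 16 members in 1% O2 minus N2B27, 12 to 15 in 1% O2+Dox minus Dox, 13 to 15 in 1% O2+DAPT minus DAPT, 16 to 18 in the mean oxygen effect, 8 to 11 other pathway genes and 9 to 11 isoform pairs. N2B27 minus ESC gave 1 member each time, and the doxycycline, DAPT and interaction comparisons 0. With the replicate block, 20 other pathway genes and 3 members in N2B27 minus ESC passed. Apart from the calls named with the results, the block changed no call of a member or of an isoform pair. Other pathway genes numbered 6 with the stricter filter, 6 with the authors' processed values and 6 in replicates 3 and 4 alone, the last 2 with 5 higher and 1 lower each. In N2B27 minus ESC 0 members passed with the stricter filter, with only the groups compared, in replicates 1 and 2 alone and in replicates 3 and 4 alone. The stricter filter tests fewer genes, and the last 3 use fewer samples. With only the groups compared, each oxygen comparison called 12 members, all higher. Over all genes, the block raised the calls in 1% O2 minus N2B27 from 402 to 1958 and in the mean oxygen effect from 1724 to 4072, and only the groups compared gave 173 in the former. For the doxycycline and N2B27 minus ESC comparisons the block gave 170 and 1575 in place of 33 and 190. Without a filter on dim probes, Pkm and Pygl missed the threshold in 1% O2 minus N2B27 (adjusted p = 0.0688 and 0.0725) and Pkm in 1% O2+Dox minus Dox (0.0523). Signal near background limits Hk1, Pgk1, Pdk2, Pygl, Slc16a3, Ppp1r3b and Tktl1.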
